A study of Mus musculus with 4 samples.

Results

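The nuclear genes of the mitochondrial respiratory chain and of ATP synthase were examined in tumor-infiltrating Tc1 and Tc9 cells. Members were taken by symbol: every gene whose name starts with Nduf, Uqcr, Cox4, Cox5, Cox6, Cox7, Cox8 or Atp5, together with *Sdha*, *Sdhb*, *Sdhc*, *Sdhd* and *Cycs*. The rule found 90 of the 15981 genes listed in at least 1 library, and no measured value entered it. Thy1.1+ Pmel-1 CD8+ T cells, which carry a transgenic receptor for the melanoma antigen gp100, were from C57BL/6 mice and were cultured for 5 days. They were stimulated and polarized at the same time, Tc1 cells with IL-2 and Tc9 cells with IL-4, TGF-β and an antibody against IFN-γ, and by the study's methods both were then kept in medium with IL-2 for the rest of the culture. Stimulation was through CD3 and CD28 or, in some experiments, with the gp100 peptide, and which was used here is not given in the sources used here. The cells were injected i.v. into Thy1.2+ B6 hosts that carried 10-day s.c. B16 melanomas, and the study's methods name cyclophosphamide, peptide-pulsed dendritic cells and IL-2 as adjuvants of this tumor model. Transferred cells were sorted from the tumors 14 days later, and the RNA, from 6 mice, was pooled into 2 libraries per group. The age of the mice, how these 6 were divided among groups and libraries, and a batch are not given in the sources used here, so p-values measure the spread between pools.

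The respiratory chain passes electrons from NADH (at complex I) and succinate (at complex II) through complex III and cytochrome c to oxygen at complex IV. Complexes I, III and IV pump protons, and ATP synthase uses the returning protons to make ATP. Most subunits are encoded in the nucleus and imported, and a few core subunits are encoded by mitochondrial DNA. T cells draw on this system most strongly as memory and long-lived cells, while activated effector cells also rely on glycolysis.

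Each table lists genes in the character order of their numeric identifiers and reaches a different point, so the members fall into 4 sets. All 4 libraries reach 9 members, Tc1 replicate 2 and both Tc9 libraries reach a further 12, the replicate 2 libraries alone reach 13, and Tc9 replicate 2 alone reaches 56. Tc1 cells were therefore measured for 34 of the 90 genes, and complex II was measured in Tc9 cells only. Library depth, inferred from the ratio of count to FPKM where a table is partial, was between 30822953 and 31927162 counts. Where a table reached a gene but did not list it, the gene was set to 0. The sorted cells carried CD8 T cell RNA, with *Cd8a* at 19330 to 21622 counts and *Cd4* at 45 to 58 counts. *Il9*, the cytokine that names Tc9 cells, was at 3 counts in Tc1 replicate 2 against 2601 and 2667 in the Tc9 libraries, and *Ifng*, the Tc1 cytokine, had 15303 against 5097 and 4700. Of the 7 melanoma markers, 3 were listed, with a summed level of 2.61 CPM (counts scaled by library size) in Tc1 and 4.28 CPM in Tc9 replicate 2. The 9 myeloid markers summed to 34.2 and 40.8 CPM in the same libraries, with *C1qa* and *Lyz2* at 0 in both and *Cd74*, at 26.6 CPM in both, giving most of the sum. *Cd68*, a lysosomal protein of macrophages, was at 7.17 and 7.04 CPM in Tc1 against 11.4 and 14.0 CPM in Tc9, and was called higher over all 4 libraries (log2 fold change 0.84, edgeR adjusted p = 0.00295). *Itgam*, another of the 9, went the other way, at 12 counts in Tc1 replicate 2 against 9 and 2 in the Tc9 libraries. *Cd74* was at 21.1 CPM in Tc9 replicate 1. The 4 B cell markers summed to 5.41 and 15.5 CPM, and the 5 fibroblast and endothelial markers to 14.5 and 14.8 CPM. *Cd79b*, part of the B cell receptor, was at 155 counts in Tc1 replicate 2 against 380 and 473 in the Tc9 libraries, and was called higher over these 3 libraries (log2 fold change 1.46, edgeR adjusted p = 0.0219). *Foxp3*, a regulatory T cell factor, was at 34.6 counts in the Tc1 and at 1592 in the Tc9 library of replicate 2, and the part of *Cd68*-, *Cd79b*- or *Foxp3*-expressing cells in the values below was not tested. In sorted pools, fewer cells of a type and less RNA per cell cannot be told apart.

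Promoters of respiratory genes often hold sites for NRF1, for GABPA (an ETS factor also called NRF2) and for YY1. RefSeq promoter windows, from 250 bases before to 50 after the start (build GRCm38.p6), matched 75 of the 90 members. On either strand, the NRF1 palindrome (GCGCA, any base, GCGC) was in 18 of the 75 members (24.0%), against 10.5% of the genes listed in Tc9 replicate 2 and 5.19% of all genes with a window. The NRF1 core CGCATGCG, which fixes the free base as T and leaves the outer bases open, was in 12 members (16.0%, against 3.99% and 2.07%). Both the palindrome and the core were in 8 members. The ETS letters CCGGAAG were in 18 members (24.0%, against 18.5% and 9.93%), and the YY1 letters AAGATGGC were in 11 (14.7%, against 4.83% and 3.19%). In all, 41 members held at least 1 of these letter runs, which describe the windows and are not measured binding sites. The 250 bases before the start are shown for *Atp5k*, the member with the lowest fold change over all 4 libraries, for *Cycs*, the lowest in the replicate 2 libraries, for *Atp5j*, whose start at this position has 3 of the motifs, and for *Cox7a1*, the member with the highest ratio. Capitals mark any of the 4 motifs, and the sequences run 5′ to 3′.
Atp5k (chr5:108434400-108434649, minus strand): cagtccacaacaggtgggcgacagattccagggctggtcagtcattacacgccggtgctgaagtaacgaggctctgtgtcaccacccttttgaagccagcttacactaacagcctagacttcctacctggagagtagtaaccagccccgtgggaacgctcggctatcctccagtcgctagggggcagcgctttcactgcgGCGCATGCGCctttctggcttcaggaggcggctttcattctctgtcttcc
Cycs (chr6:50566570-50566819, minus strand): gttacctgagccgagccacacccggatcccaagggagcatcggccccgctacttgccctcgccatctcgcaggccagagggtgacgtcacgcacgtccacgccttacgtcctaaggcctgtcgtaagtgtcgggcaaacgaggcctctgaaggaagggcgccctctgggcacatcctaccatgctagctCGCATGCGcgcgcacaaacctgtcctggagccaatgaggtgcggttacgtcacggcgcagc
Atp5j (chr16:84834977-84835226, minus strand): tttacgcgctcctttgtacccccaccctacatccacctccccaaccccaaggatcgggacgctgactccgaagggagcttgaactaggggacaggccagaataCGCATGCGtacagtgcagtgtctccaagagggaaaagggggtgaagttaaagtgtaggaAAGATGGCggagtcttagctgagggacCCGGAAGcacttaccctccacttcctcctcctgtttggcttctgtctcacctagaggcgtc
Cox7a1 (chr7:30183921-30184170, plus strand): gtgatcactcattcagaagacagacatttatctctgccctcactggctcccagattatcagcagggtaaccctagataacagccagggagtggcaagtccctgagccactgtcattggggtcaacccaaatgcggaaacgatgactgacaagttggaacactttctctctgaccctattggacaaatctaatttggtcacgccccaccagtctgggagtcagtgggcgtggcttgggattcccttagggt
*Atp5k* holds the NRF1 palindrome with the core inside it, *Cycs* the core, and *Atp5j* the core, the YY1 letters and the ETS letters. None of the 4 occurs in these bases of *Cox7a1*. Over its full window *Atp5k* also holds the ETS letters. Another RefSeq start of *Atp5j* (chr16:84835626-84835875, minus strand) has none of the 4 in its 250 bases. The *Atp5j* gene shares bases with *Gabpa*, which encodes the DNA-binding subunit of GABP, in the RefSeq annotation.

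Across the 9 genes that all libraries reach, 7 encode ATP synthase subunits, with log2 fold changes (Tc9 over Tc1) between -0.48 and -0.03, and none passed the test. ATP synthase has a catalytic head, a rotating ring of c subunits in the inner membrane and a stalk that joins them. *Atp5b*, the catalytic β subunit, was at 50543 and 52103 expected counts in the Tc1 libraries, against 43660 and 48597 in those of Tc9. *Atp5a1*, the α subunit of the head, was at 29078 and 29088 counts in the Tc1 libraries, against 25260 and 25714 in those of Tc9. For both genes the Tc9 libraries lay below the Tc1 libraries, with log2 fold changes of -0.15 (95% interval -0.37 to 0.07) and -0.19 (-0.40 to 0.02). That of *Atp5b* was -0.08 without Tc9 replicate 1 and -0.23 without Tc9 replicate 2. *Atp5c1*, the γ subunit that forms the rotating shaft, was at 7641 and 8725 counts in the Tc1 libraries, against 8137 and 7905 in those of Tc9, and the groups overlapped (log2 fold change -0.03, interval -0.27 to 0.22).

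*Atp5g1*, 1 of 3 genes for the same mature c-ring subunit, was at 4181 and 4318 counts in the Tc1 libraries, against 3123 and 3840 in those of Tc9. *Atp5f1*, the b subunit of the stalk, was at 6811 and 7067 counts in the Tc1 libraries, against 6073 and 5463 in those of Tc9. *Atp5j*, coupling factor 6 of the stalk, was at 3784 and 3941 counts in the Tc1 libraries, against 3344 and 3012 in those of Tc9. The Tc9 libraries were the lower ones in all 3 genes, at log2 fold changes of -0.28, -0.26 and -0.28 with standard errors of 0.13, 0.11 and 0.11. For *Atp5g1* the value was -0.14 without Tc9 replicate 1 and -0.44 without Tc9 replicate 2. *Atp5k* (gene identifier 11958, chr5:108433246-108434399), the small membrane subunit e that helps synthase dimers form, was at 233 and 219 counts in the Tc1 libraries, against 137 and 186 in those of Tc9. This was the lowest of the 9 log2 fold changes, at -0.48 (standard error 0.18, interval -0.89 to -0.07, edgeR adjusted p = 0.0681). Both its value and its rank turned on the Tc9 libraries. Without Tc9 replicate 1 it was -0.28, less low than *Atp5j* (-0.36) and *Atp5f1* (-0.34), and without Tc9 replicate 2 it was -0.72.

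The remaining 2 genes of this set belong to complexes IV and I. *Cox6b1*, an intermembrane-space subunit of complex IV, was at 4254 and 4509 counts in the Tc1 libraries, against 4336 and 3731 in those of Tc9 (log2 fold change -0.12, interval -0.38 to 0.15, -0.23 without Tc9 replicate 1 and -0.01 without Tc9 replicate 2). *Ndufb11*, an accessory subunit in the membrane arm of complex I, was at 1697 and 1795 counts in the Tc1 libraries, against 1787 and 1797 in those of Tc9 (0.04, interval -0.21 to 0.29). The groups overlapped for both.

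In this comparison 0 of the 9 genes were called at an adjusted p under 0.05, where 34.1% of the 1284 genes tested were called, 17.4% higher and 16.7% lower in Tc9. By unadjusted p 4 of 9 were under 0.05, against 46.0% of all genes tested. DESeq2 called 0 (29.4% of all genes) and limma on log2(FPKM + 1) called 1, *Atp5k* (30.6% of all genes). With the replicate number as a block, *Atp5k* was also called (log2 fold change -0.49, edgeR adjusted p = 0.0383, 34.6% of all genes called). The log2 fold change was below 0 in 8 of 9 genes (49.9% of all genes tested), with a median of -0.19 against 0.0 for all genes, and *Atp5c1* turned to 0.01 when scaled by depth alone. Both Tc9 libraries lay below both Tc1 libraries in 6 of 9, against 35.7% of the genes tested. Summed over the 9 genes, the level was 3434 and 3560 CPM in Tc1 and 3054 and 3195 CPM in Tc9. Over the genes that all libraries reach, the Tc9 libraries differed from each other more than the Tc1 libraries did (mean chi-square per gene between replicates 40.4 against 4.46). Without Tc9 replicate 1, 5 of 9 were called, all lower in Tc9, and without Tc9 replicate 2, 6 of 9, again all lower, while 62.8% and 54.5% of all genes were then called. *Atp5a1*, *Atp5f1*, *Atp5g1* and *Atp5j* were called in both of these fits, in which the lone Tc9 library is assumed to vary like the Tc1 libraries. Leaving out 1 Tc1 library instead gave 0 of 9, with 12.1% and 9.42% of all genes called.

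**Figure D1:**
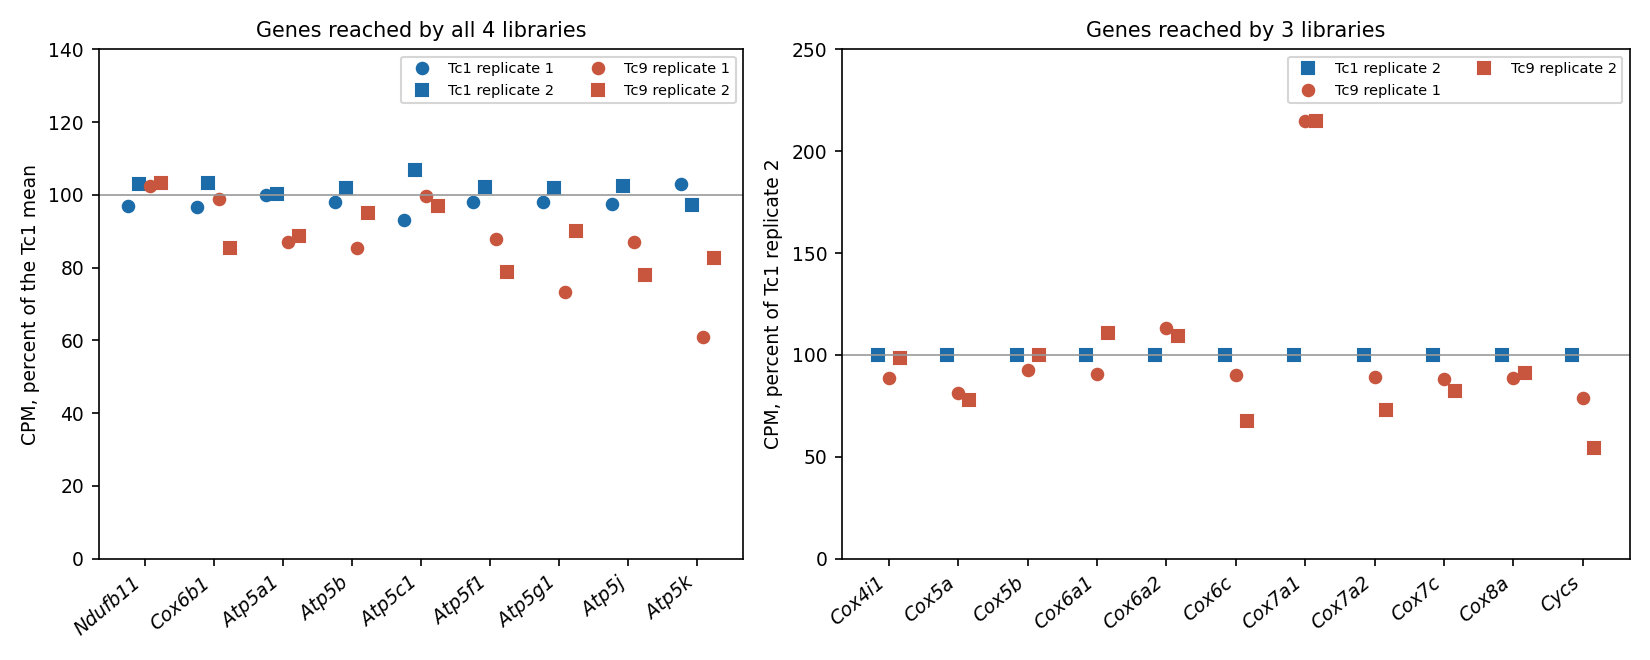
Level (CPM, linear axis from 0) of each gene in each library as a percent of the Tc1 mean (left, 4 libraries) or of the single Tc1 library (right, 3 libraries); points are libraries and no error bars are drawn. The Tc9 points lie below the Tc1 points in 6 of the 9 genes on the left, and on the right *Cox7a1* stands above and *Cycs* below the Tc1 level in both Tc9 libraries.

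Of the 11 ubiquitous subunits of complex IV, 8 were reached by Tc1 replicate 2 and both Tc9 libraries but not by Tc1 replicate 1, with log2 fold changes between -0.34 and 0.01, none past the test. *Cox6b1* was reached by all 4 libraries (above), *Ndufa4* by the replicate 2 libraries alone, where its log2 ratio was -0.66, and *Cox7b* by Tc9 replicate 2 alone. Complex IV, cytochrome c oxidase, has a catalytic core encoded by mitochondrial DNA, around which these nuclear subunits sit. *Cox4i1*, the regulatory subunit that binds ATP, was at 7047 counts in Tc1, against 6248 and 6944 for Tc9. *Cox5a* was at 3779 counts in Tc1, against 3060 and 2926 for Tc9. *Cox5b* was at 4240 counts in Tc1, against 3938 and 4240 for Tc9. *Cox5a* was lower in both Tc9 libraries by more than they differed from each other, while *Cox5b* in Tc9 replicate 2 was at the Tc1 level.

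*Cox6a1* was at 3779 counts in Tc1, against 3435 and 4180 for Tc9. *Cox6c* was at 3077 counts in Tc1, against 2774 and 2077 for Tc9. *Cox7a2* was at 2497 counts in Tc1, against 2221 and 1822 for Tc9. *Cox6a1* lay on both sides of the Tc1 value, and *Cox6c* and *Cox7a2* were lower mainly in Tc9 replicate 2. *Cox7c* was at 6035 counts in Tc1, against 5306 and 4963 for Tc9, and *Cox8a* had 5318 in Tc1, against 4696 and 4832 for Tc9. Over these 8 genes the median log2 fold change was -0.20 (range -0.34 to 0.01, smallest adjusted p 0.354), and with *Cox6b1* they summed to 1283 CPM in Tc1 and 1147 and 1138 CPM in Tc9.

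*Cycs* (gene identifier 13063, chr6:50562563-50566569) encodes cytochrome c, the soluble carrier between complexes III and IV that also triggers apoptosis when released. It had 7182 counts in Tc1 replicate 2, 5679 in Tc9 replicate 1 and 3912 in Tc9 replicate 2. Both Tc9 libraries were below the Tc1 library, at log2 ratios of -0.34 and -0.88, and Tc9 replicate 2 lay 0.54 below Tc9 replicate 1, with a log2 ratio of -0.54. The fitted log2 fold change of -0.58 (standard error 0.28, interval -1.26 to 0.10) had an adjusted p of 0.243.

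The 3-library set also held 3 tissue-restricted isoforms of complex IV, of which 2 passed the filter on low counts and 0 were called. *Cox7a1* (gene identifier 12865, chr7:30184171-30186030), the heart and muscle counterpart of *Cox7a2*, was at 26 counts in Tc1, against 56 and 56 for Tc9. Both Tc9 libraries were at 2.15 times the Tc1 library by the fit, at a low level, a log2 fold change of 1.10 (standard error 0.35, interval 0.24 to 1.97, adjusted p = 0.114). limma on log2(FPKM + 1) called it, with a log2 difference of 0.92 and an adjusted p of 0.0223. *Cox6a2*, the muscle counterpart of *Cox6a1*, was at 45 counts in Tc1, against 51 and 49 for Tc9 (log2 fold change 0.15, interval -0.64 to 0.95). *Cox8b* had 0, 1 and 2 counts and did not pass the filter. A value of 3 counts or fewer is at the limit of what a library of this depth can show.

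Of the 12 genes of this 3-library set, 11 passed the filter on low counts and 0 were called, where 10.7% of 2622 genes tested were called, 7.51% higher and 3.2% lower in Tc9. By unadjusted p 1 of 11 was under 0.05 (*Cox7a1*), against 26.7% of all genes tested, DESeq2 called 0 (12.8% of all genes) and limma called 1 (13.8% of all genes). The log2 fold change was below 0 in 8 of 11 (46.6% of all genes tested), with a median of -0.16 against 0.05 for all genes. Both Tc9 libraries lay below the Tc1 library in 7 of 11 genes and above it in 2, against 37.8% and 44.1% of all genes tested. The Tc1 library has no replicate here and is assumed to vary like the Tc9 libraries, and the count of calls over all genes ran from 0 to 535 with the settings, so that a gene not called may still differ, since on simulated counts this fit missed changes of 2-fold.

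Between the replicate 2 libraries, 33 of the 34 members reached had at least 10 counts in 1 library and were compared with no test, since each group is 1 library. The intervals given for these ratios are 95% Wilson intervals and cover counting error only. For scale, the 2 Tc9 libraries differed by less than 0.73 on the log2 scale in 95% of 2622 genes. The 2 Tc1 libraries differed by less than 0.52 in 95% of 1284 genes. The log2 ratio was below 0 in 26 of 33 members (47.6% of 6225 genes compared), with a median of -0.17 against 0.03 for all genes. Past a limit of 1.5-fold, 2 members were lower (*Cycs* and *Ndufa4*) and 1 was higher (*Cox7a1*), against 12.8% lower and 21.0% higher among all genes. With TMM scaling factors from the genes both tables reach, a choice made after seeing the data, 4 members were past the limit and lower, against 14.0% of all genes under that scaling. With the scaling used here the members lay within the 1.5-fold limit in 30 of 33 cases, and 33.8% of all genes compared lay past it.

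In complex I, which takes electrons from NADH, 8 subunits were compared and their median log2 ratio was -0.16. *Ndufs1*, the largest core subunit and a holder of iron-sulfur clusters, was at 2924 counts in Tc1 against 2111 for Tc9, a log2 ratio of -0.47 (interval -0.55 to -0.39). *Ndufb6*, a membrane-arm accessory subunit, had 924 and 620 counts, a ratio of -0.57 (-0.72 to -0.43). Other core subunits were nearer to 0, with *Ndufv1*, which binds NADH and flavin, at 2118 and 2126 counts (0.01, interval -0.08 to 0.09). *Ndufs8*, which holds iron-sulfur clusters, had 2165 and 1953 counts (-0.15, interval -0.24 to -0.06). The accessory subunits *Ndufs4* and *Ndufa2* had ratios of -0.26 and -0.11, and *Ndufaf8*, an assembly factor of the complex, -0.14. The 4 core subunits and the 4 accessory subunits compared had medians of -0.16 and -0.18.

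In complex III, which passes electrons from ubiquinol to cytochrome c, *Uqcrc1*, a core protein facing the matrix, was at 7206 counts in Tc1 against 7512 for Tc9 (log2 ratio 0.06, interval 0.01 to 0.11). *Uqcrq*, a small subunit near cytochrome b, had 3832 and 3008 counts (-0.35, interval -0.42 to -0.28). *Ndufa4* (gene identifier 17992, chr6:11900372-11907450), named as a complex I subunit and now assigned to complex IV, was at 2110 counts in Tc1 against 1333 for Tc9, a log2 ratio of -0.66 (-0.76 to -0.56). Of the genes compared, 10.5% had a lower ratio than *Ndufa4*, and 6.41% a lower ratio than *Cycs* (-0.88, interval -0.93 to -0.82). The ratios of *Uqcrc1*, *Uqcrq* and *Ndufa4* were within the 0.73 given above for the Tc9 libraries, and that of *Ndufa4* was past the 0.52 given for the Tc1 libraries. *Cox7a2l*, which helps join complexes III and IV into supercomplexes, had a ratio of -0.04 (-0.10 to 0.02). All 8 ATP synthase genes compared were below 0, from -0.39 for *Atp5j* to -0.10 for *Atp5b*, and *Atp5g3* was at -0.32 with 4593 and 3688 counts.

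**Figure D2:**
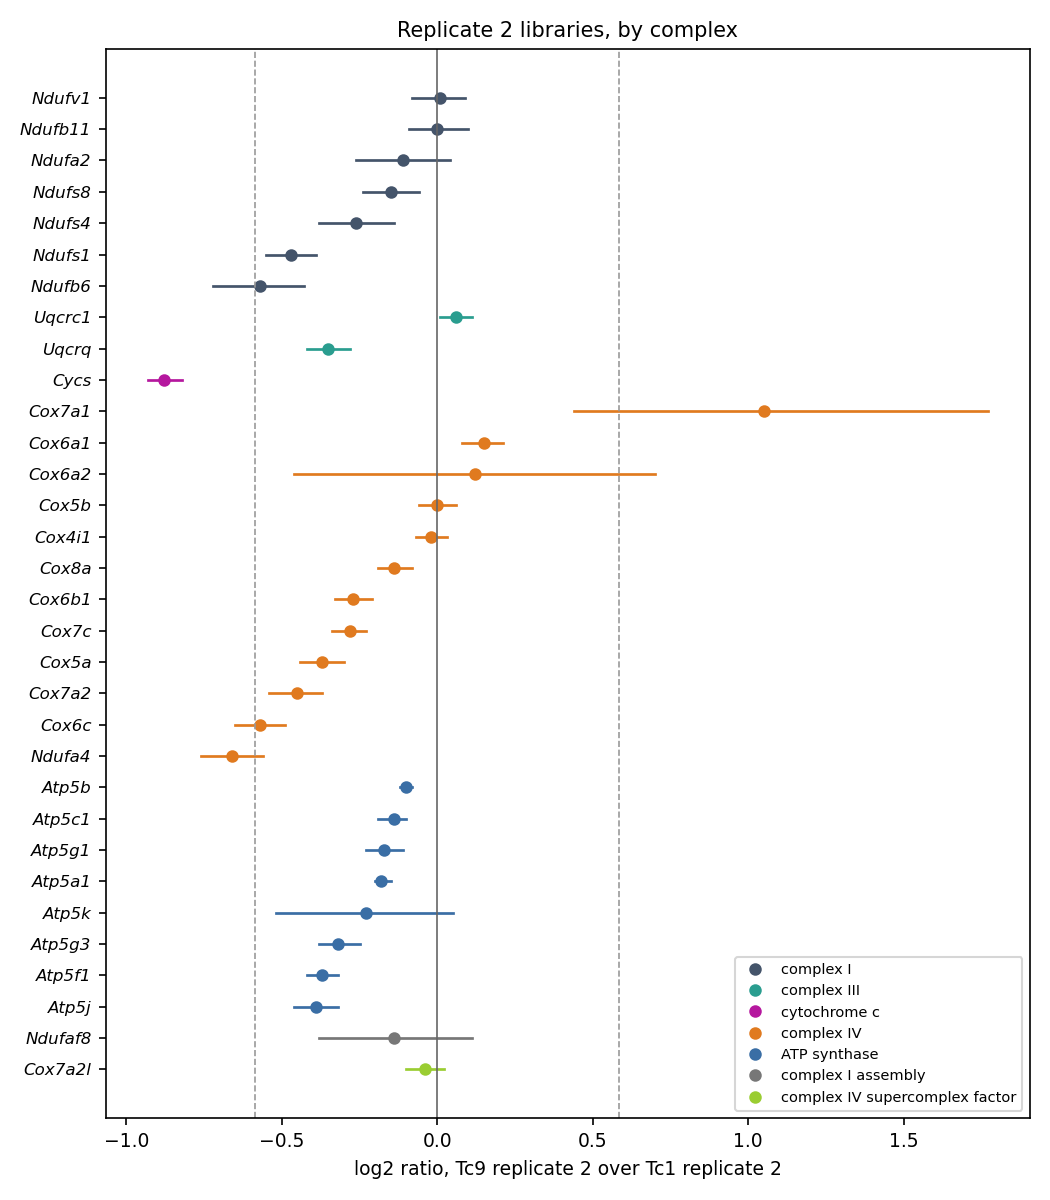
Log2 ratio of Tc9 replicate 2 over Tc1 replicate 2 (horizontal axis) for 32 of the 33 genes compared, grouped by complex; bars are 95% Wilson intervals for counting error and dashed lines mark 1.5-fold. Most points lie between the solid line at 0 and the left dashed line, with *Cycs* at -0.88 and *Ndufa4* at -0.66 beyond it and *Cox7a1* at 1.05 on the other side.

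Levels of all 90 members can be read in Tc9 replicate 2, and per length (FPKM) they were high. The median was 79.7 FPKM against 5.09 FPKM over the 15442 genes listed there, and 79 of 90 members were at or above 10 FPKM (38.6% of all genes). The members took 2.23% of the summed FPKM and 0.894% of the counts. *Atp5b* was the highest at 906 FPKM, rank 102 among all genes, and 30 members were among the 500 highest. These genes are short, with a median listed length of 757.5 bases against 2869 bases for all genes, and the FPKM values rest on a shorter length than the listed one: counts scaled by the listed length and by depth came to a median of 0.816 of the FPKM for the members, and to 0.956 for all genes with at least 500 counts.

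ATP synthase had a median of 202 FPKM over 15 genes, with *Atp5k* lowest at 27.8 FPKM. Of the c-ring genes, *Atp5g2* was at 379 FPKM, 2.01 times *Atp5g1* (189 FPKM) and 1.87 times *Atp5g3* (202 FPKM). The 11 ubiquitous subunits of complex IV had a higher median, 309 FPKM, from 96.2 FPKM for *Cox7a2* to 520 FPKM for *Cox7c*, and with the 6 tissue-restricted isoforms the median was 123 FPKM. The 8 genes of complex III ran from 70.8 FPKM for *Uqcrq* to 179 FPKM for *Uqcrb*, with a median of 153 FPKM. Complex I was lower, with a median of 72.9 FPKM over 35 subunits, from 14.1 FPKM for *Ndufb2* to 396 FPKM for *Ndufv3*. The 4 subunits of complex II, which is also the succinate dehydrogenase of the TCA cycle, ran from 49.6 FPKM for *Sdhc* to 87.9 FPKM for *Sdhb*. *Cycs* was at 43.5 FPKM, below the median of every complex. The 8 complex I assembly factors, which are not part of the finished enzyme, had a median of 8.49 FPKM, from 2.89 FPKM for *Ndufaf5* to 23.6 FPKM for *Ndufaf8*. *Atp5s*, which carries the name but is not a subunit of the synthase, was at 1.62 FPKM.

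Ubiquitous isoforms of complex IV outweighed their tissue-restricted counterparts in Tc9 replicate 2. *Cox4i1* was at 362 FPKM and *Cox4i2*, the lung and hypoxia isoform, at 2.18 FPKM, a ratio of 166. *Cox6a1* was at 345 FPKM and *Cox6a2* at 2.95 FPKM, a ratio of 117, and *Cox8b* rested on 2 counts beside 387 FPKM for *Cox8a*. *Cox6b2*, known from testis, was at 20.02 FPKM against 331 FPKM for *Cox6b1*, a ratio of 16.5. *Ndufa4l2*, a hypoxia-induced relative of *Ndufa4*, had 1 count. The ratio of *Cox7a2* to *Cox7a1* in FPKM was 38.7 in the Tc1 library against 16.3 and 13.4 in the Tc9 libraries, so that the ubiquitous form remained the larger one in all 3 libraries.

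**Figure D3:**
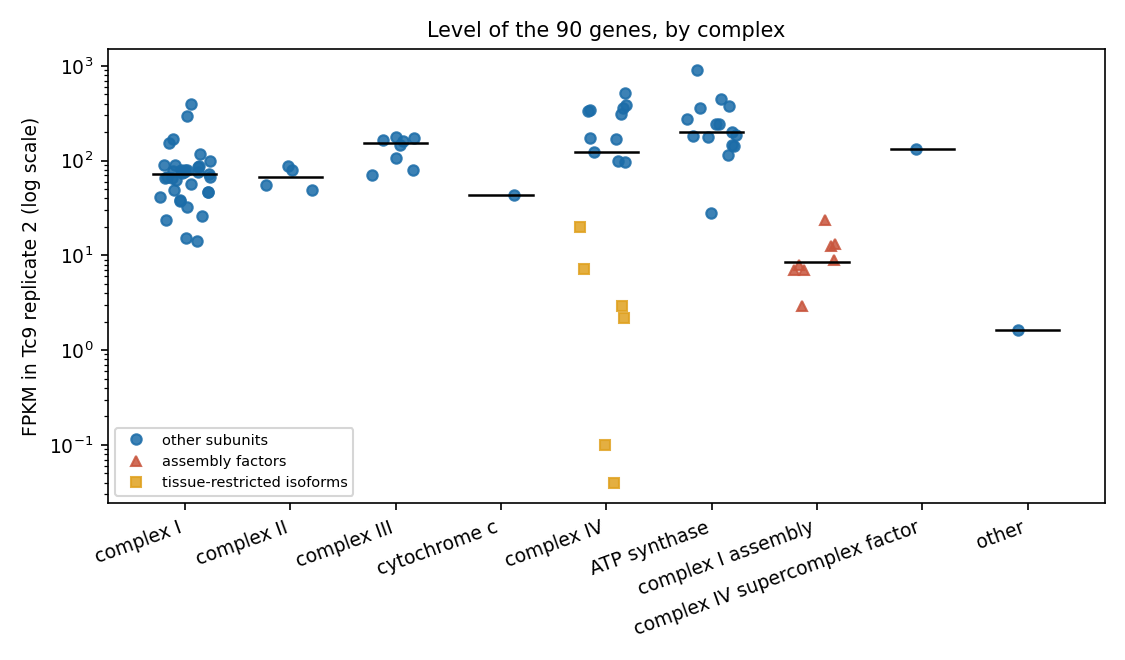
FPKM in Tc9 replicate 2 (vertical log axis) of the 90 genes by complex; each point is a gene, black lines are medians, triangles are complex I assembly factors and squares are tissue-restricted isoforms of complex IV. The line for ATP synthase is at 202 FPKM and that for complex IV, drawn over all 17 of its genes, at 123 FPKM (309 FPKM over the ubiquitous subunits), and the assembly factors (8.49 FPKM) and most restricted isoforms lie below most subunits.

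Other genes that build, regulate or feed the respiratory chain were taken from 4 lists. Of 43 assembly factors with other names, 3 were tested over all 4 libraries and 0 were called, where 34.1% of all genes were. In the 3-library set 1 of 2 was called, lower in Tc9. This was *Cox17* (gene identifier 12856, chr16:38346983-38352763), the copper chaperone that supplies the metal centers of complex IV. Tc1 replicate 2 held 2815 counts of it, against 862 and 751 for the Tc9 libraries, so both Tc9 libraries lay far below the Tc1 library. The fitted level in Tc9 was 0.287 of that in Tc1, a log2 fold change of -1.80 (standard error 0.21, interval -2.31 to -1.29, adjusted p = 0.00604), and 3.2% of genes tested were called lower. Against the Tc1 library, Tc9 replicates 1 and 2 lay at log2 ratios of -1.70 and -1.90, and 1.43% of the genes compared in replicate 2 had a lower one. The call holds in 8 of 9 fits, the exception being the fit with no filter on low counts, in which 0 of 3431 genes were called. *Hccs*, which attaches heme to cytochrome c, was at 1026 counts in Tc1, against 984 and 755 for Tc9 (log2 fold change -0.24, adjusted p = 0.566). In the replicate 2 comparison 2 of 12 assembly factors compared were past 1.5-fold, both lower, a share close to the 12.8% of all genes that lay past it and lower. The second was *Foxred1*, a complex I assembly factor, at -0.64.

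Of 19 regulators of mitochondrial gene expression, 4 were tested in the 3-library set and 0 were called, where 10.7% of all genes were. *Gabpa* was at 3936 counts in Tc1, against 4072 and 3014 for Tc9 (log2 fold change -0.15, adjusted p = 0.742). *Ppargc1b*, the coactivator PGC-1β, was at 135 counts in Tc1, against 190 and 245 for Tc9 (0.69, adjusted p = 0.180). In the replicate 2 pair, *Tfam*, which packages and transcribes mitochondrial DNA, was at -0.73, and *Nrf1* was at -0.47. *Esrra*, an estrogen-related receptor, and *Pprc1*, a PGC-1-related coactivator, were both at 0.71, and *Ppargc1a*, the coactivator PGC-1α, had 0 and 1 counts. In this list 3 of 15 genes compared were past 1.5-fold higher and 1 lower, near the 21.0% higher and 12.8% lower among all genes compared.

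Of the 13 TCA cycle genes, which supply NADH and succinate to the chain, 7 were tested in the 4-library and 3-library fits and 0 were called, where 34.1% and 10.7% of all genes were. By replicate 2 alone, 4 of 10 were past 1.5-fold lower in Tc9 (*Suclg2* -0.98, *Dld* -0.82, *Fh1* -0.65 and *Sucla2* -0.61), against 12.8% of all genes, and none was higher. *Dld* was at 3540 counts in Tc1 replicate 2, against 2756 and 2005 for the Tc9 libraries (fitted log2 fold change -0.57, adjusted p = 0.222). *Cs*, citrate synthase, was at 16771 counts in Tc1 replicate 2, against 15442 and 17383 for Tc9, on both sides of the Tc1 value. Of the 9 carriers, porins and the synthase inhibitor, 3 were tested over 4 libraries and 0 were called, where 34.1% of all genes were. With the replicate number as a block 1 of the 3 was called, where 34.6% of all genes were, in either direction. The median log2 fold change of the 3 was -0.25 without Tc9 replicate 1 and -0.19 without Tc9 replicate 2. *Atpif1*, which blocks ATP hydrolysis by the synthase, was at 3519 and 3520 counts in the Tc1 libraries, against 3079 and 2324 in those of Tc9 (log2 fold change -0.38, adjusted p = 0.0638), and was the 1 gene of 8 in its list past 1.5-fold in replicate 2, at -0.60, where 12.8% of all genes lay past it and lower. *Slc25a5*, an ADP/ATP carrier, was at 21141 and 23139 counts in the Tc1 libraries, against 20511 and 20164 in those of Tc9 (-0.12, adjusted p = 0.379). In that pair *Vdac2*, a porin of the outer membrane, was at -0.54, and *Ucp2*, an inner-membrane carrier, was at 0.51. The 13 subunits encoded by mitochondrial DNA were looked for by symbol but were not listed in any library, so they could not be compared.

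**Figure D4:**
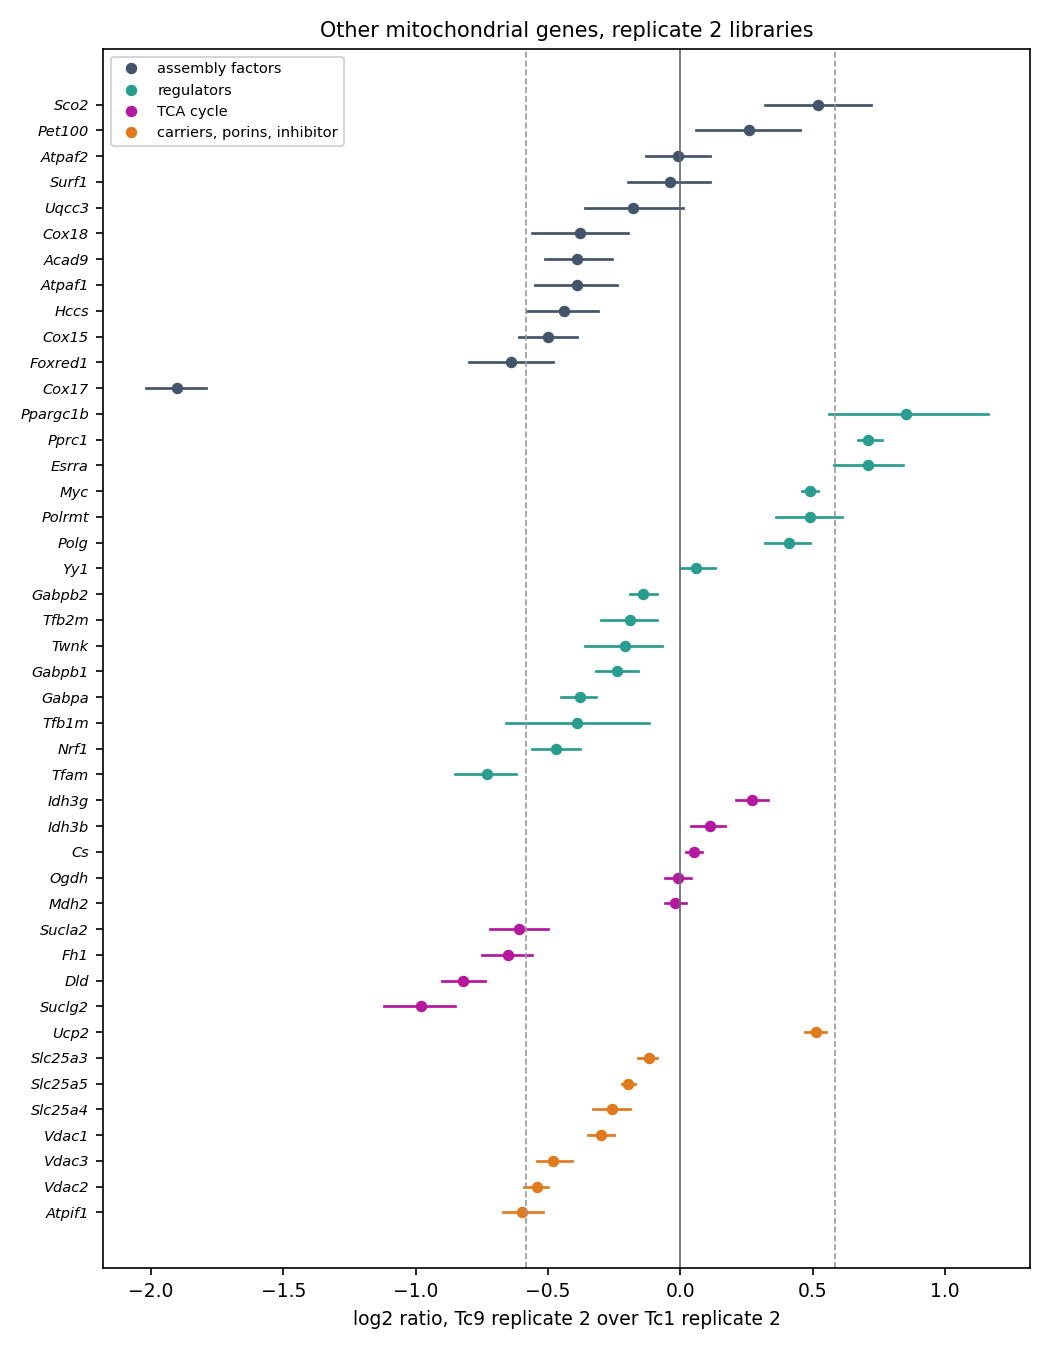
Log2 ratio of Tc9 replicate 2 over Tc1 replicate 2 (horizontal axis) for most genes of the 4 lists with at least 10 counts in 1 of the libraries; bars are 95% Wilson intervals for counting error and dashed lines mark 1.5-fold. *Cox17* stands apart at -1.90, 4 TCA cycle genes lie past the left dashed line, and the regulators spread on both sides of 0.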

How the data were processed

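Per the labels, total RNA of sorted cells was sequenced from DNB libraries. The authors deposited expected counts per gene, not normalized, FPKM values scaled by length and library size, and a length in bases. The build mm10 is named in the submitters' processing notes, and coordinates are from RefSeq on GRCm38.p6, its assembly. The aligner and counter are not given in the sources used here. The members and lists were chosen with earlier results of these data known. Depth of partial tables was the median ratio of count to FPKM against Tc9 replicate 2 over genes with at least 500 counts. Expected counts were rounded, scaled by TMM factors of the genes all tables reach (median log2 fold change 0.0) and tested two-sided with edgeR 4.0.16 in R 4.3.3 (quasi-likelihood, filterByExpr at a minimum count of 10, Benjamini-Hochberg), which on simulated data called most 2-fold but a minority of 1.5-fold changes with 4 libraries, and most 4-fold but no 2-fold changes with 3, with limma 3.58.1 and DESeq2 1.42.0 as alternatives. Replicate 2 libraries were compared by log2 ratio with a prior count of 2. All members that passed the filter are named with values. Others are named if past 1.5-fold, if highest or lowest in a complex, or as an isoform pair. *Ndufs1*, *Ndufb6* and others of the replicate 2 set were named after their values were seen. Counts were not whole in 7 members (*Atp5f1*, *Cox5b*, *Cox7a2l*, *Ndufa13*, *Atp5g2*, *Ndufs3* and *Atp5h*), as in genes that share reads (81.7% of all genes had whole counts), and 29 members share bases with another RefSeq gene. Results of some single genes are not reported here.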

Additional observations from a re-analysis of the deposited data

How the results depend on the processing

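Over all 4 libraries, 0 members were called higher under every alternative run. Members called lower went from 0 to 1 (*Atp5k*) with limma on log2(FPKM + 1) or log2(FPKM + 0.1) and with a replicate block (log2 fold change -0.49, adjusted p = 0.0383), settings that called 30.6%, 31.9% and 34.6% of all genes in either direction, and to 3 at an adjusted p under 0.1, where 22.4% of all 1284 genes were called lower. With each library left out in turn, the count lay between 0 and 6, the median log2 fold change between -0.20 and -0.17, and calls among the lists between 0 and 1 for assembly factors and the TCA cycle and between 0 and 2 for carriers. The carriers' median of -0.23 came to -0.19 with depth alone, -0.19 and -0.20 with limma, and -0.25 to -0.19 with a library left out, and 1 carrier (*Atpif1*) was called under the replicate block and at an adjusted p under 0.1. The deviations of libraries with the same replicate number correlated at -0.0645, which with 2 libraries a group does not show whether the numbers mark a shared batch, and the sources used here do not say. The block changed no other call of a member. The sign turned for *Atp5c1* (0.01 with depth alone and with limma at either pseudocount, -0.12 to 0.08 with a library left out), *Ndufb11* (-0.00 without Tc1 replicate 1) and *Cox6a1* (-0.03 with DESeq2 or its size factors, -0.02 with TMM factors from the 3 tables).

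In the 3-library set, 281 of 2622 genes were called, against 0 with no filter, 463 at a minimum count of 50, and 534 to 535 with depth alone, DESeq2 size factors or TMM factors from the 3 tables. With no filter the call of *Cox17* was lost (0 assembly factors called). Members called higher went from 0 to 1 (*Cox7a1*) with limma at either pseudocount (13.8% and 10.5% of all genes called in either direction). Without 1 Tc9 library no test is left, and past 1.5-fold 1 member was higher in both cases and 0 to 1 lower. Between the replicate 2 libraries, members past the limit and lower numbered 4 with TMM factors from the genes both tables reach (14.0% of all genes), 10 at a looser limit of 0.32 on the log2 scale (25.8%) and 0 at 2-fold (4.95%), and with no minimum count 2 were higher (24.0%). The TMM factors from the 3 tables and from both replicate 2 tables were added after seeing the data. The causes were not tested. Depth limits *Cox7a1*, *Cox6a2* and *Cox8b*.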
